A study of Homo sapiens with 4 samples.

Results

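Proteoglycan core proteins are the protein backbones that carry glycosaminoglycan chains, and 10 of their genes were followed in HGC-27 cells, a human gastric cancer cell line. They were taken by name, as the rows of the 4 count files called DCN, LUM, BGN, VCAN, HSPG2, SDC1, SDC2, SDC4, GPC1 and GPC3, out of 31907 gene names in all. Both groups were the same cell line kept for 48 h, 2 libraries with PBS and 2 with recombinant IL-17B (rIL-17B) at 200 ng/ml, and no allele, clone or further agent is given in the labels. The question was which transcripts differ when the cells receive rIL-17B, a cytokine that acts through the receptor IL-17RB. Nothing states that the libraries of a group came from separate cultures, so the spread between them may be technical. Of the 10 genes, 9 were listed in every library and passed the filter on low counts, and GPC3 did not.

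The 5 core proteins that are secreted into the matrix (DCN, LUM, BGN, VCAN and HSPG2) were lower than with PBS in both rIL-17B libraries, but by very different amounts. The PBS mean exceeded rIL-17B replicate 1 by between 2.36-fold and 1671-fold, while in replicate 2 these genes lay between 11.4% and 15.8% under the PBS mean. Of the 4 cell-surface core proteins that could be tested, SDC1 was higher than with PBS in both rIL-17B libraries. SDC2 and GPC1 differed from the PBS mean by at most 24.8% in each rIL-17B library. SDC4 was lower in replicate 1 and at the PBS level in replicate 2. Over all genes tested, both rIL-17B libraries lay below both PBS libraries for 27.5% and above both for 31.5%. With all 4 libraries, 0 of the 10 genes passed the test between the groups, against a background of 0% of the 16361 genes tested (edgeR quasi-likelihood test, Benjamini-Hochberg adjusted p under 0.05). At an unadjusted p under 0.05 edgeR counted 226 genes and DESeq2 457, with none of the 10 genes in the first and SDC1 in the second.

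Proteoglycans are built in the secretory pathway. In many of them, though not all, chains of heparan sulfate, chondroitin sulfate or dermatan sulfate are grown on serine residues of the core protein. Decorin, lumican and biglycan are small leucine-rich proteoglycans that bind collagen and guide how its fibrils assemble. Versican is a large chondroitin sulfate proteoglycan that binds hyaluronan, and perlecan, the product of HSPG2, is the large heparan sulfate proteoglycan of basement membranes. Syndecans span the plasma membrane and glypicans are held on it by a lipid anchor, and both act as co-receptors that present growth factors to their receptors. In stomach tumors the matrix proteoglycans are known mainly as products of stromal fibroblasts, while syndecan-1 is a typical surface protein of epithelial cells.

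The library rIL-17B replicate 1 stood apart from the other 3. Library totals were between 12888029 and 17555879 counts after repeated and date-like names were removed, so that 3 counts, the smallest level taken as shown, corresponded to between 0.171 and 0.233 CPM (the count divided by the library total, times 1000000). FN1, which encodes fibronectin, had 526938 and 418314 counts with PBS, then 2172 in rIL-17B replicate 1, against 481910 in replicate 2. The summed level of 9 fibroblast and mesenchymal markers was 19128 and 18737 CPM with PBS, 803 CPM in rIL-17B replicate 1 and 16247 CPM in replicate 2. All 9 were above the floor in the PBS libraries and in replicate 2, and 7 of the 9 were above it in replicate 1, where PDGFRA and POSTN had 1 count each. The 8 epithelial markers summed to 995 and 989 CPM with PBS, 2219 CPM in replicate 1 and 1245 CPM in replicate 2, mostly KRT8, KRT18 and KRT7, while CDH1, the defining adhesion protein of epithelia, had between 7 and 11 counts and EPCAM between 39 and 78. KRT19 went the other way, with 47 and 43 counts with PBS, 1 in replicate 1 and 58 in replicate 2. CLDN4 had 6.73 and 8.38 CPM with PBS, 6.64 CPM in replicate 1 and 5.92 CPM in replicate 2. Of the 8, 7 were above the floor in the PBS libraries and in replicate 2, and 6 in replicate 1. Of the 6 gastric markers TFF1 was at 0 in all 4 libraries and TFF2 and GKN1 had at most 2 counts, and the list summed to 16.98 and 14.6 CPM with PBS, 3.56 CPM in replicate 1 and 13.4 CPM in replicate 2. The sum followed GATA6, which had 15.2 and 11.4 CPM with PBS, 1.57 CPM in replicate 1 and 12.1 CPM in replicate 2. CLDN18 was not lower in replicate 1, with 1.63 and 1.71, then 1.92 and 1.08 CPM. MUC5AC had 2 and 19 counts with PBS, then 0 and 2. The labelled stomach origin therefore had little marker RNA in any library. The sums of these lists move with the results below, though not every marker does, and their part in them was not tested. In bulk RNA, fewer cells of a type and less RNA per cell cannot be told apart.

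In PBS-treated cells 4 of the matrix core proteins were the most abundant of the 10 genes per kb of exon, and HSPG2 came after SDC4. Levels of different genes are compared here as CPM per kb of exon, where the length is the union of all GENCODE exons. BGN stood first at 235 ± 7.65 CPM per kb (SD, n = 2), followed by LUM at 122 ± 12.0, VCAN at 108 ± 4.12 and DCN at 82.6 ± 5.98 CPM per kb. The levels then went down to SDC4 at 41.4 ± 1.03, HSPG2 at 36.6 ± 1.41, GPC1 at 24.8 ± 1.57, SDC2 at 24.0 ± 0.710 and SDC1 at 19.3 ± 0.178 CPM per kb. GPC3, a glypican known as an oncofetal protein of liver cancer, was last at 0.0116 CPM per kb. Among neighbours in this order, GPC1 and SDC2 overlapped between the PBS libraries, and the other neighbours did not. The order depends on the length that is used. With the longest transcript of each gene 5 of the 10 kept their place and DCN, whose exon union is 12.8 kb, moved to place 2, and with the median length of the coding transcripts, a measure added after the values were seen, 2 kept their place and DCN moved to place 1. SDC1, place 9, and GPC3, place 10, were in the same place by all 3 lengths.

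**Figure D1:**
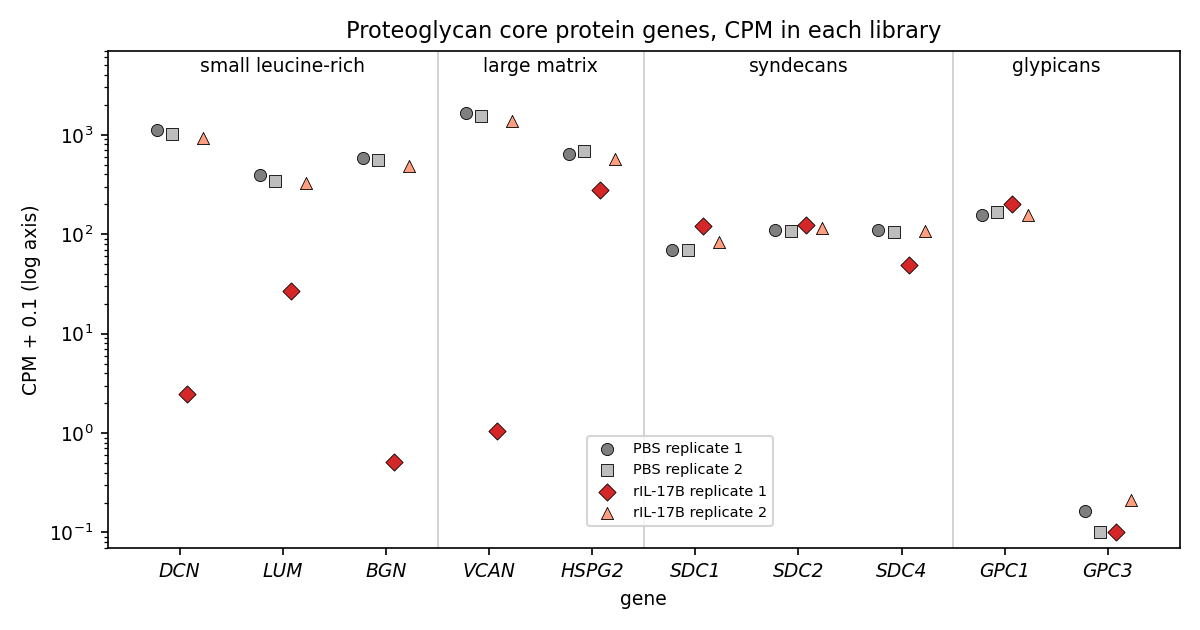
CPM of the 10 proteoglycan core protein genes in each of the 4 libraries, with 0.1 added so that 0 can be drawn on the log axis, and the genes grouped by family. In rIL-17B replicate 1 DCN, BGN and VCAN lie below 3 CPM and LUM at 27.0 CPM, while the other 3 libraries lie close together for every gene that passed the filter.

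The genes lie on 7 chromosomes (GRCh38, GENCODE 29). DCN (ENSG00000011465.16, chr12:91140484-91183123) and LUM (ENSG00000139329.4, chr12:91102629-91111831) are neighbours on the minus strand, 28.7 kb apart. BGN (ENSG00000182492.15) lies at chrX:153494939-153509554 on the plus strand and GPC3 (ENSG00000147257.13) at chrX:133535745-133985895 on the minus strand. VCAN (ENSG00000038427.15) lies at chr5:83471465-83582303 on the plus strand and HSPG2 (ENSG00000142798.19) at chr1:21822245-21937297 on the minus strand. SDC1 (ENSG00000115884.10, minus strand) at chr2:20200797-20225433 and GPC1 (ENSG00000063660.8, plus strand) at chr2:240435671-240468078 share a chromosome but not a neighbourhood. SDC4 (ENSG00000124145.6) lies at chr20:45325288-45348424 on the minus strand, and SDC2 (ENSG00000169439.11) on the plus strand of a chromosome that holds none of the others. Whether strand was used in counting is not given in the sources used here, so reads of a gene on the other strand could be shared. Exons of VCAN touch those of VCAN-AS1 and exons of HSPG2 touch those of LDLRAD2, and these partners had at most 30 and 9 counts in a library.

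Promoters of genes that were lower than PBS in both rIL-17B libraries and of genes that were not are shown side by side. The RefSeq promoter table (GRCh38.p14) matched 6 of the 10 genes with 7 windows, namely BGN, GPC1, HSPG2, SDC4, VCAN and SDC1, the last with a second start. Each window was the 250 bases before the start that RefSeq gives, and the window of VCAN and that of the second SDC1 start lie inside the gene as GENCODE annotates it and are not printed. BGN (chrX:153494730-153494938, plus strand, the 209 bases before its first annotated exon) and HSPG2 (chr1:21937311-21937560, minus strand) are lower genes, 1405-fold and 2.36-fold under PBS in replicate 1, and SDC1 (chr2:20225476-20225725, minus strand) and GPC1 (chr2:240435413-240435662, plus strand) are genes that were not. Capitals mark the GC box, searched as GGGCGG on both strands, and matches may overlap.
BGN: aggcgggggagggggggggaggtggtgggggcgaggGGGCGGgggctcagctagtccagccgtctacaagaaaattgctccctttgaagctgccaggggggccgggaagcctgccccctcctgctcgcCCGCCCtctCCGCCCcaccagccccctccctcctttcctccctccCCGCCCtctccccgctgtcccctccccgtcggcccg
HSPG2: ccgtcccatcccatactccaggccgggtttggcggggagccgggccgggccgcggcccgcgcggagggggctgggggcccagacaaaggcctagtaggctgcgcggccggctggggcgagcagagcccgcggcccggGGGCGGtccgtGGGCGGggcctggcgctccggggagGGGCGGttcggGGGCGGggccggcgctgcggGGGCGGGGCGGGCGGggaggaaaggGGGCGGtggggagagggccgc
SDC1: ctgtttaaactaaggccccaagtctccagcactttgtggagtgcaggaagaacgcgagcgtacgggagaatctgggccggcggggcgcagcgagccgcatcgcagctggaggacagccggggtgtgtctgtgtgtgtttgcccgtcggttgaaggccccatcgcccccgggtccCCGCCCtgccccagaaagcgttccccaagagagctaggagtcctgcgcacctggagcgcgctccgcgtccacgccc
GPC1: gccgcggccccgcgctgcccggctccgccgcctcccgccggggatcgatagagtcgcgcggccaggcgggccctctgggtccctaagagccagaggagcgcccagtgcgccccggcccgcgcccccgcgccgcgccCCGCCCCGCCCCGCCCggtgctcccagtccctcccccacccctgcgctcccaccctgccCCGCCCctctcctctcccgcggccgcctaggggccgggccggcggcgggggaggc
The printed stretches held 4 GC boxes in BGN, 8 in HSPG2, 1 in SDC1 and 4 in GPC1. At least 1 GC box was found in each of the 7 windows, as it was in 42.6% of all 35116 promoters in the table. No window held a TATA box (TATAAA, in 10.7% of all promoters), a CCAAT box (CCAAT, 32.0%), an AP-1 site (TGANTCA, 6.57%) or an E-box (CACGTG, 6.35%), each searched on both strands. The GC content of the 7 windows was between 60.8% in VCAN and 84.0% in GPC1, beside a median of 58.0% over all promoters. Over their full 250 bases, the windows printed in whole or in part had 74.0% in BGN and 82.8% in HSPG2, and 66.4% in SDC1, so neither pair held the higher GC content throughout.

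Decorin and biglycan were far lower in rIL-17B replicate 1 and slightly lower in replicate 2. DCN had 17738 and 12973 counts with PBS (1115 and 1007 CPM), 35 counts in rIL-17B replicate 1 (2.39 CPM, 95% exact Poisson interval 1.67 to 3.33) and 16259 counts in replicate 2 (926 CPM). The PBS mean was 443-fold above replicate 1 (95% interval 319 to 636, which like the others below covers the counting error of replicate 1 only) and replicate 2 was 12.7% under the PBS mean. BGN had 9384 and 7262 counts with PBS (590 and 563 CPM), 6 counts in rIL-17B replicate 1 (0.411 CPM, interval 0.151 to 0.894) and 8523 counts in replicate 2 (485 CPM). For BGN the PBS mean was 1405-fold above replicate 1 (interval 645 to 3828), and replicate 2 was 15.8% under it. Replicate 1 thus held a trace of both transcripts, while replicate 2 was a little under the lower PBS library.

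LUM was also lower in rIL-17B replicate 1 but kept more of its RNA than its neighbour DCN. It had 6251 and 4408 counts with PBS (393 and 342 CPM), 395 counts in rIL-17B replicate 1 (27.0 CPM, interval 24.4 to 29.8) and 5719 counts in replicate 2 (326 CPM). The PBS mean was 13.6-fold above replicate 1 (interval 12.3 to 15.0), and replicate 2 lay 11.4% under the PBS mean. The ratio of LUM to DCN counts was 0.352 and 0.340 with PBS, 11.3 in replicate 1 and 0.352 in replicate 2. The genes that lie side by side on chromosome 12 therefore had the same proportion in 3 libraries, and in replicate 1 LUM had the greater count. Of the genes that passed the filter, LUM and DCN were those for which the PBS libraries themselves differed most. The ratio of PBS replicate 1 to PBS replicate 2 was 1.15 for LUM and 1.11 for DCN, and 1.05 for BGN of the same family. The PBS mean was 1.13-fold above rIL-17B replicate 2 for LUM, no more than the gap between the PBS libraries, and 1.15-fold above it for DCN.

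The large matrix core proteins versican and perlecan were not reduced alike in rIL-17B replicate 1. VCAN had 26147 and 20074 counts with PBS (1644 and 1558 CPM), 14 counts in replicate 1 (0.958 CPM, interval 0.524 to 1.61) and 23919 counts in replicate 2 (1362 CPM). The PBS mean was 1671-fold above replicate 1 (interval 996 to 3057), and replicate 2 lay 14.9% under the PBS mean. HSPG2 had 10252 and 8774 counts with PBS (645 and 681 CPM), 4112 counts in replicate 1 (281 CPM, interval 273 to 290) and 10084 counts in replicate 2 (574 CPM). Perlecan RNA in replicate 1 was thus 57.5% under the PBS mean, a 2.36-fold gap (interval 2.28 to 2.43), and 13.3% under it in replicate 2. The ratio of HSPG2 to VCAN counts was 0.392 and 0.437 with PBS, 294 in replicate 1 and 0.422 in replicate 2.

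**Figure D2:**
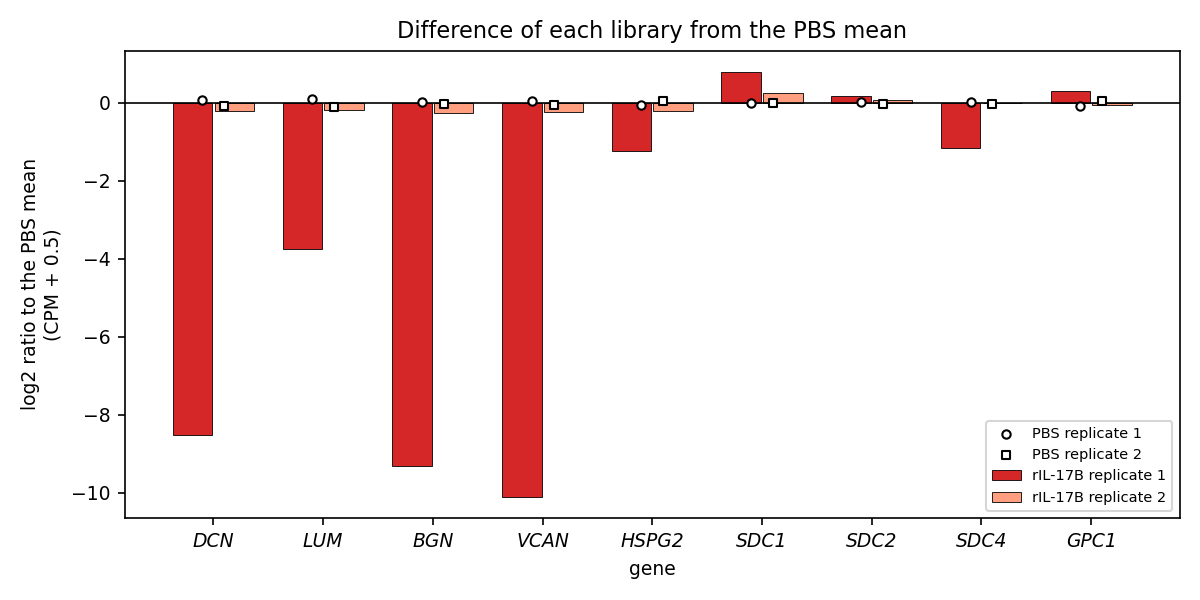
Log2 ratio of each library to the PBS mean, after 0.5 CPM was added to both, for the 9 genes that passed the filter, with bars for the rIL-17B libraries and open points for the PBS libraries. The bars of replicate 1 reach -8.52 for DCN, -9.31 for BGN and -10.10 for VCAN but -1.23 for HSPG2 and 0.80 for SDC1, while those of replicate 2 stay between -0.25 and 0.26.

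The syndecans moved in different directions. SDC1, the epithelial syndecan, had 1095 and 899 counts with PBS (68.8 and 69.8 CPM), 1763 counts in rIL-17B replicate 1 (121 CPM) and 1456 counts in replicate 2 (82.9 CPM). It was 74.1% above the PBS mean in replicate 1 and 19.7% above it in replicate 2, and the groups did not overlap. SDC4, a broadly expressed syndecan of focal adhesions, had 1749 and 1368 counts with PBS (110 and 106 CPM), 709 counts in replicate 1 (48.5 CPM, interval 45.0 to 52.2) and 1889 counts in replicate 2 (108 CPM). It was 55.1% under the PBS mean in replicate 1 and 0.423% under it in replicate 2, which lay between the PBS libraries. SDC2, the syndecan best known from mesenchymal cells, had 1768 and 1374 counts with PBS (111 and 107 CPM), 1794 in replicate 1 (123 CPM) and 2006 in replicate 2 (114 CPM). Both rIL-17B libraries were above both PBS libraries for SDC2 by library totals, but the groups overlapped once TMM factors were applied.

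The sum of SDC1, SDC2 and SDC4 was nearly the same in all 4 libraries, at 290 and 283 CPM with PBS, 292 CPM in rIL-17B replicate 1 and 305 CPM in replicate 2. Its makeup differed, since the ratio of SDC1 to SDC4, both per kb of exon, was 0.455 and 0.478 with PBS, 1.81 in replicate 1 and 0.560 in replicate 2. SDC4 was thus the more abundant of the pair in 3 libraries and SDC1 in replicate 1.

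Of the glypicans GPC1 was expressed and GPC3 was not shown. GPC1, a glypican found on many tumor cells, had 2452 and 2173 counts with PBS (154 and 169 CPM), 2943 counts in rIL-17B replicate 1 (201 CPM, interval 194 to 209) and 2718 counts in replicate 2 (155 CPM). It was 24.8% above the PBS mean in replicate 1 and 4.07% under it in replicate 2, which lay between the PBS libraries. GPC3 had 1 and 0 counts with PBS, 0 in replicate 1 and 2 in replicate 2, all under the floor of 3 counts, so no fold is given.

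Added together, the 10 genes took 0.483% and 0.460% of all counts with PBS, 0.0805% in rIL-17B replicate 1 (95% Wilson interval 0.0791% to 0.0820%) and 0.413% in replicate 2 (interval 0.410% to 0.416%). Within the 10 genes, per kb of exon, the small leucine-rich proteoglycans made up 64.2% and 62.6% with PBS, 6.92% in replicate 1 and 61.5% in replicate 2. Syndecans and glypicans together made up 15.3% and 16.2% with PBS, 81.5% in replicate 1 and 18.4% in replicate 2. What was left of this group in replicate 1 was therefore mostly cell-surface core protein RNA, and replicate 2 lay a little to the same side of both PBS libraries.

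**Figure D3:**
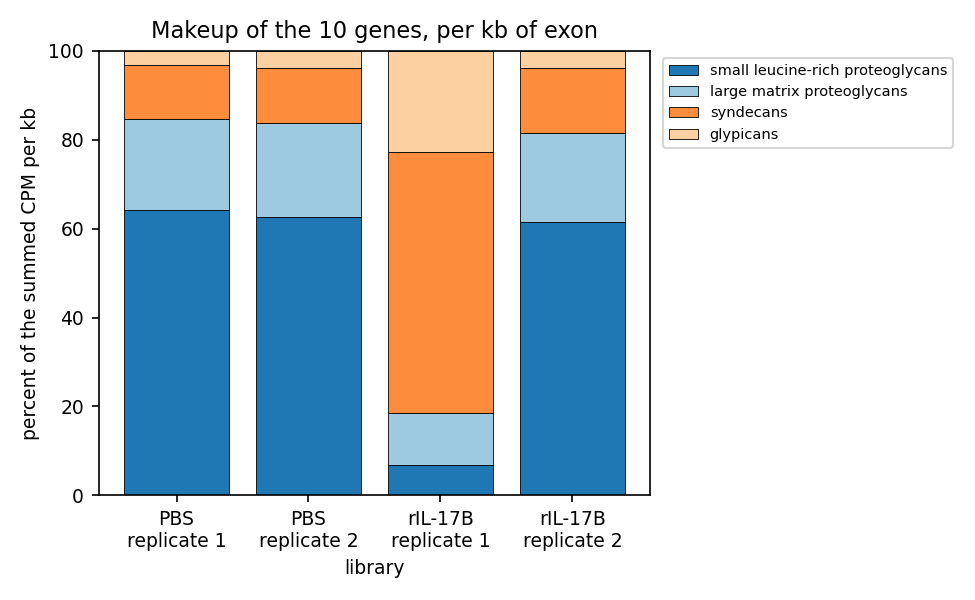
Share of each family in the summed CPM per kb of exon of the 10 genes, as stacked bars that add to 100% for each library. Small leucine-rich and large matrix core proteins fill most of the bar in both PBS libraries and in rIL-17B replicate 2, and syndecans and glypicans fill 81.5% of it in rIL-17B replicate 1.

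The comparison of the groups was limited by the distance between the rIL-17B libraries. The edgeR log2 fold change, rIL-17B over PBS, was -1.20 for DCN (SE 2.32, adjusted p = 0.790), -1.07 for LUM (SE 1.25, adjusted p = 0.706), -1.25 for BGN (SE 2.50, adjusted p = 0.795) and -1.24 for VCAN (SE 2.61, adjusted p = 0.805). The log2 ratios of replicates 1 and 2 to the PBS mean were -8.52 and -0.20 for DCN and -3.74 and -0.17 for LUM. They were -9.31 and -0.25 for BGN and -10.10 and -0.23 for VCAN. Each group value thus lay between its rIL-17B libraries and nearer to replicate 2. The SE was taken as the absolute log2 fold change divided by the square root of the F statistic. HSPG2 was at -0.68 (SE 0.44, adjusted p = 0.661), SDC4 at -0.51 (SE 0.48, adjusted p = 0.671) and SDC1 at 0.47 (SE 0.18, adjusted p = 0.661, unadjusted p = 0.0602). SDC2 and GPC1 were closest to 0, at 0.05 (SE 0.10, adjusted p = 0.786) and 0.06 (SE 0.14, adjusted p = 0.807). Of the 9 genes 3 had a log2 fold change above 0 and 6 below, with a median of -0.68 beside -0.03 over all genes tested. For a single gene the smallest two-sided p of an exact permutation test with 2 libraries a group is 0.333, and no such test is given.

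Read one library at a time, 6 of the 9 genes tested stood below the median of the transcriptome in rIL-17B replicate 1, and SDC1, SDC2 and GPC1 above it. The median log2 ratio to the PBS mean was -1.19 over the 10 genes in replicate 1, beside 0.08 over all genes tested, and -0.12 in replicate 2, beside 0.00. For the 5 matrix genes the medians were -8.52 and -0.21, and for the 4 cell-surface genes tested 0.25 and 0.03. TMM factors shifted the median of all genes in replicate 1 by -0.13 on the log2 scale. By library totals GPC1 and SDC2 were at 0.32 and 0.17 there, which is 0.24 and 0.09 above the median of all genes by the same totals. In replicate 1, 6 of the 10 genes were at least 2-fold below the PBS mean, and 18.6% of all genes tested were. At least 8-fold below it were 4 of the 10 (DCN, LUM, BGN and VCAN) beside 5.78% of all genes, a limit chosen after the values were seen. In replicate 2, 0 of the 10 were at least 2-fold below the PBS mean, beside 0.575% of all genes.

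Both rIL-17B libraries lay below both PBS libraries for 5 of the 10 genes, which were the 5 matrix genes, beside 27.5% of all genes tested. Both lay above for SDC1 and SDC2, 2 of the 10, beside 31.5% of all genes. By TMM factors 6 genes in place of 7 did not overlap, SDC2 being the one that did. Genes without overlap were thus common over the whole transcriptome, and these counts alone do not set the 10 genes apart.

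The outcome of the test turned on which rIL-17B library was used. Without rIL-17B replicate 1, 0 of the 10 genes passed, beside 2.95% of 17103 genes tested (504 genes), with the lone rIL-17B library assumed to vary like the PBS libraries. VCAN (log2 fold change -0.24, SE 0.08, adjusted p = 0.0598) and BGN (-0.25, SE 0.08, adjusted p = 0.0607) came closest in that fit, and DCN, LUM, HSPG2 and SDC1 were also under an unadjusted p of 0.05. The median over the 9 genes was then -0.18, and GPC1 went from 0.06 to -0.062. Without rIL-17B replicate 2, on the same assumption, 6 of the 10 were lower (DCN, LUM, BGN, VCAN, HSPG2 and SDC4) beside 31.9% of 17223 genes, and 1 of the 10, SDC1, was higher beside 23.2%. The matrix genes kept their direction in both fits, at -8.92 and -0.20 for DCN, -10.56 and -0.25 for BGN, -10.83 and -0.24 for VCAN, -3.90 and -0.18 for LUM and -1.37 and -0.21 for HSPG2, where the first value is the fit that holds replicate 1. SDC1 was at 0.66 and 0.26 in the same fits and SDC4 at -1.29 and -0.01.

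The remaining syndecans and glypicans, named here after their values were seen, spread over the same range. SDC3, the syndecan of nervous tissue, had 2174 and 2446 counts with PBS, 283 in rIL-17B replicate 1 and 1818 in replicate 2, where the PBS mean was 8.43-fold and 1.58-fold above the rIL-17B libraries. GPC6 had 925 and 781 counts with PBS, 0 in replicate 1 and 861 in replicate 2, and GPC4 had 152 and 103, then 0 and 127. Taking 3 counts as the floor of that library, replicate 1 was at least 289-fold lower than the PBS mean for GPC6 and at least 42.7-fold lower for GPC4. GPC5 had 88 and 86 counts with PBS, 192 in replicate 1 and 129 in replicate 2, and GPC2 had 54 and 40, then 38 and 45. The surface families thus held members with no counts in replicate 1 and members above PBS in both rIL-17B libraries, as SDC1 and GPC5 were. The adjusted p of these 5 genes in edgeR was between 0.661 and 0.769.

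A wider list of genes, grouped here as other core proteins, also differed more in rIL-17B replicate 1 than in replicate 2. The list was drawn broadly, with genes such as LEPR and SMC3, and whether each product carries glycosaminoglycan chains was not tested. Of its 47 genes, which include the 5 syndecans and glypicans above, 36 were tested, 0 passed in either direction, and 7 had a log2 fold change above 0 and 29 below, with a median of -0.68. The log2 ratios to the PBS mean had a median of -1.21 for rIL-17B replicate 1 and of -0.16 for replicate 2, and 19 of the 36 were at least 2-fold below the PBS mean in replicate 1, where 18.6% of all genes tested were. COL12A1, a fibril-associated collagen that can carry chondroitin sulfate, had 24345 and 18039 counts with PBS, 7662 in replicate 1 and 24421 in replicate 2. AGRN, which encodes the basement membrane proteoglycan agrin, had 4634 and 4306 counts with PBS, 5566 in replicate 1 and 5292 in replicate 2, and was above PBS by CPM in replicate 1 where HSPG2 was below. APLP2, SMC3 and TGFBR3, the last a co-receptor of TGF-β, had both rIL-17B libraries above both PBS libraries, at log2 fold changes of 0.04, 0.27 and 0.29 (adjusted p = 0.867, 0.661 and 0.661). Of the 36 genes tested, 5 lay above in this way and 23 below, beside 31.5% and 27.5% of all genes tested. In CPM, APLP2 had 684 and 698 with PBS, then 780 in replicate 1 and 712 in replicate 2, SMC3 had 103 and 97.7, then 142 and 113 CPM, and TGFBR3 had 25.2 and 23.7, then 34.9 and 28.2 CPM. ACAN and COL9A1 of this list are also chondrocyte markers.

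Genes of chain building were counted in 3 lists, none with a gene past the threshold in either direction (0 by edgeR). Of 16 genes for sugar precursors and the linker, 4 had a log2 fold change above 0 and 12 below, and the log2 ratio to the PBS mean had a median of -0.13 for rIL-17B replicate 1 and -0.01 for replicate 2. Heparan sulfate synthesis and modification had 15 of 23 genes tested, 4 above and 11 below, with medians of -0.27 and -0.03. Chondroitin and dermatan sulfate synthesis had 16 of 16, 4 above and 12 below, with medians of -0.14 and -0.06. At least 2-fold below the PBS mean in replicate 1 were 2 of 16, 4 of 15 and 3 of 16 genes of these lists, beside 18.6% of all genes tested, so these counts are near the background. The lists were not alike throughout, since XYLT1 (-4.50), CHSY3 (-3.88), PXYLP1 (-3.40) and HS3ST3B1 (-2.70), named after their values were seen, had log2 ratios far below 0 in replicate 1. At an unadjusted p under 0.05 there was 1 gene, HS6ST3, a heparan sulfate 6-O-sulfotransferase, with 20 and 17 counts for PBS, 54 in replicate 1 and 39 in replicate 2 (log2 fold change 1.11, SE 0.38, unadjusted p = 0.0470, adjusted p = 0.661). PAPSS2 and SLC35B2, which make and carry the sulfate donor, had 122 and 116 CPM and 127 and 118 CPM with PBS, 159 and 172 CPM in replicate 1, and 128 and 134 CPM in replicate 2. FAM20B, a kinase of the linker, had 69.7 and 64.9 CPM with PBS, then 85.4 and 78.3 CPM, and CSGALNACT1, which starts chondroitin chains, had 38.7 and 42.5, then 63.4 and 45.6 CPM. For these 4 genes both rIL-17B libraries were thus above both PBS libraries, as they were for 31.5% of all genes tested. NDST1, a heparan sulfate N-deacetylase and sulfotransferase, had 261 and 265 CPM with PBS, then 146 and 245 CPM, and EXTL3 had 98.7 and 123, then 80.3 and 95.6 CPM. CHPF of chondroitin synthesis had 227 and 258 CPM with PBS, then 146 and 213 CPM, and CHST7, a chondroitin sulfotransferase, had 12.1 and 13.7, then 5.68 and 8.37 CPM. These 4 were lower in both rIL-17B libraries, as were 27.5% of all genes tested. Of the genes tested in the 3 lists, 5 of 16, 7 of 15 and 6 of 16 lay below in this way, and 3, 2 and 1 above. The groups overlapped for UGP2 (131 and 131, then 112 and 131 CPM), CHPF2 (124 and 137, then 152 and 133 CPM) and DSE (136 and 116, then 65.3 and 119 CPM). The adjusted p of these 11 genes was between 0.661 and 0.780.

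SULF1, an extracellular sulfatase that trims heparan sulfate, had the lowest log2 ratio of the 3 chain-building lists in replicate 1. It had 21483 and 15633 counts with PBS, 12 in rIL-17B replicate 1 and 20492 in replicate 2, so that the PBS mean was 1561-fold above replicate 1. Its pattern over the 4 libraries was also the closest to that of VCAN, the gene of the 10 with the largest range. The distance, taken over the 4 centred log2 values, was 0.16 for SULF1 and 0.18 for COL6A2, a collagen VI chain with 31107 and 24805 counts with PBS, 15 in replicate 1 and 28607 in replicate 2. At the other end, the pattern closest to SDC2, the gene with the smallest range, was that of PRKRA (distance 0.0066), NECAP2 (0.0095) and KATNBL1 (0.011). Likeness over 4 libraries is a description of these libraries only.

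Hyaluronan, the chain without a core protein that versican binds, also has its own genes for synthesis and linking. Of 7 genes for hyaluronan synthases and link proteins 5 were tested, 0 passed, and all 5 were at least 2-fold below the PBS mean in replicate 1, beside 18.6% of all genes tested, with a median log2 ratio of -3.54 there and -0.33 in replicate 2. HAS2, the main synthase of mesenchymal cells, had 675 and 596 counts with PBS, 49 in replicate 1 and 619 in replicate 2. HAS1 had 227 and 133 counts with PBS, 0 in replicate 1 and 167 in replicate 2, and HAPLN1, a link protein that holds versican on hyaluronan, had 737 and 419, then 0 and 585. On the floor of 3 counts replicate 1 was at least 59.9-fold lower for HAS1 and at least 192-fold lower for HAPLN1. HAPLN3 had 173 and 133 counts with PBS, 42 in replicate 1 and 146 in replicate 2.

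Genes of chain breakdown did not lean to one side. Of 17 genes 15 were tested, 0 passed, 9 were above 0 and 6 below, and the median log2 fold change was 0.01. CEMIP, a hyaluronan-degrading protein, had 11506 and 9413 counts with PBS, 82 in rIL-17B replicate 1 and 10906 in replicate 2, a 130-fold gap between the PBS mean and replicate 1. HYAL1 and HYAL2, the hyaluronidases, had both rIL-17B libraries above both PBS libraries, with 187 and 138 counts for HYAL1 with PBS and 389 and 244 with rIL-17B, and 619 and 529 for HYAL2 with PBS and 950 and 821 with rIL-17B. Of the 15 genes tested, 5 lay above in this way and 5 below, beside 31.5% and 27.5% of all genes tested. The hyaluronidase gene CEMIP2 had 99.0 and 102 CPM with PBS, then 116 and 96.9 CPM (log2 fold change 0.01), and the adjusted p of these 4 genes was between 0.661 and 0.971.

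**Figure D4:**
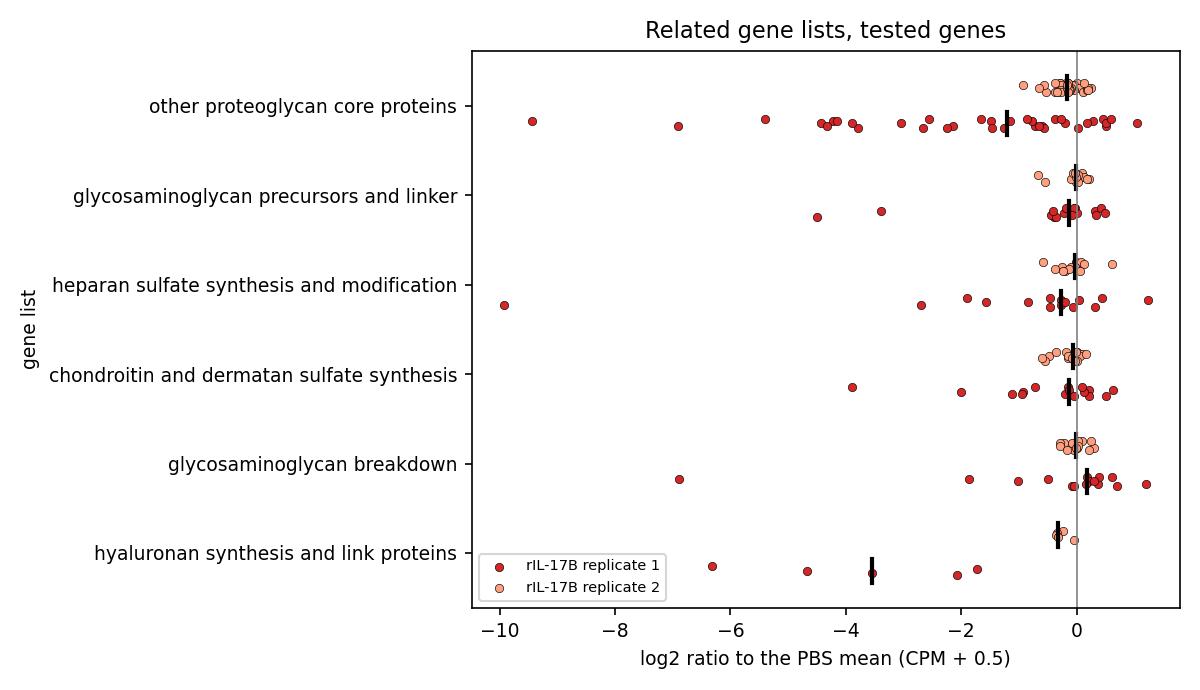
Log2 ratio to the PBS mean (CPM plus 0.5) of each tested gene in 6 related lists, one row of points for rIL-17B replicate 1 and one for replicate 2, with the median of each as a black bar. In replicate 1 the medians of the other core proteins and of the hyaluronan list lie at -1.21 and -3.54 and those of the enzyme lists between -0.27 and 0.19, and in replicate 2 all 6 medians lie between -0.33 and -0.01.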

How the data were processed

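Total RNA of 4 libraries was reverse transcribed from oligo-dT and amplified by PCR (Smart-seq2). The protocol in the labels speaks of monocytes, while the cell line given is HGC-27. The authors deposited counts, whole numbers of reads per gene name without normalization as judged from the values, and names with 0 reads are not listed. The submitters' processing notes name HTSeq 0.6.0, HISAT2 2.1.0, Bowtie2 2.2.3, TopHat2 and the build hg38, with no role or order. The annotation, the use of strand and the treatment of shared reads are not given in the sources used here.

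A name that a library repeated with an equal count (83 to 98 per library) was used once, entries whose names had become date-like numbers (22 to 25 per library, up to 0.244% of counts) were left out, and a missing name was given 0 counts. Totals were then between 12888029 and 17555879. CPM is the count divided by this total, times 1000000, and log2 ratios had 0.5 CPM added. Of 31907 names 97.8% were found once in GENCODE 29, the source of lengths and positions, and 1 was found through an older symbol (CEMIP2, listed as TMEM2). Groups were compared with edgeR 4.0.16 in R 4.3.3 (TMM factors 0.97 to 1.07, filterByExpr, quasi-likelihood test, Benjamini-Hochberg adjustment over 16361 genes, threshold 0.05, two-sided), with DESeq2 1.42.0 among the alternatives. The script was tested on simulated counts with known changes. Intervals and floors (3 counts) cover the counting error of reads only. PCR copies are not independent molecules, so the intervals may be too narrow for the molecules sampled. Tables and plots were made with Python 3.11.15.

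The 10 genes and the gene lists were chosen with earlier results of these data known. Named genes were the 10 genes, the 3 most abundant and the 2 with the smallest p of each related list, the 3 genes most like the 10's widest and narrowest pattern, the cell type markers and FN1. Of these, 1 gene most like VCAN and 1 of the breakdown list are not reported here. Marker lists not described with the results summed as follows, PBS libraries first and then rIL-17B replicates 1 and 2. The 5 endothelial markers had 27.5 and 35.5, then 1.09 and 22.6 CPM. The 6 immune and monocyte markers had 9.37 and 9.93, then 8.55 and 10.3 CPM, but they did not move alike. CSF1R had 3.90 and 5.59, then 8.14 and 6.15 CPM. PTPRC had 2.96 and 1.71, then 0 and 2.05 CPM, and CD14 had 1.45 and 1.55, then 0.274 and 1.20 CPM. ITGAM had 1.01 and 0.776, then 0 and 0.684 CPM, and LYZ and CD68 had at most 4 counts in a library. The 8 neural and glial markers had 387 and 608, then 27.6 and 281 CPM, with SOX10 at 0 in all libraries. The 5 chondrocyte markers had 46.7 and 64.9, then 9.37 and 37.1 CPM. That sum followed SOX9, with 44.7 and 62.5, then 8.42 and 35.0 CPM. COL2A1 went the other way, with 4 and 2, then 9 and 7 counts. ACAN had 17 and 14, then 0 and 19 counts, and COL9A1 and MATN1 had at most 12 counts in a library.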

Additional observations from a re-analysis of the deposited data

How the results depend on the processing

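With all 4 libraries, the counts of genes past the threshold were 0 over all genes, over the 10 genes and over each of the 6 related lists by edgeR with TMM, upper-quartile factors or library totals, without the filter, under a minimum of 10 counts per library, with the replicate block and by DESeq2, and each of the 9 genes kept its direction wherever it was fitted, BGN not being fitted under the minimum of 10 counts. At an unadjusted p under 0.05 the replicate block gave 173 genes. It moved the median over the 9 genes to -0.79 and the log2 fold changes of VCAN, BGN, DCN and LUM to -5.32, -4.94, -4.46 and -2.03, each still with an adjusted p between 0.675 and 0.702. The replicate numbers are not known to mark shared cultures, and the deviations of same-numbered libraries had a correlation of 0.08.

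Leaving out 1 library at a time gave between 0 and 9489 genes past the threshold, of which 504 came without rIL-17B replicate 1 and 9489 without rIL-17B replicate 2, and between 0 and 7 of the 10 genes. The related lists went from 0 to 29 for other core proteins (3 without rIL-17B replicate 1), 0 to 10 for precursors and linker (2), 0 to 11 for heparan sulfate, 0 to 9 for chondroitin and dermatan sulfate (2), 0 to 9 for breakdown and 0 to 5 for hyaluronan. In the order given, these lists named 47, 16, 23, 16, 17 and 7 genes. The highest count of each list came without rIL-17B replicate 2, where the 9489 genes were out of 17223 tested. Such a count alone therefore does not set a list apart, and the lists were not tested against that background. The log2 fold change of GPC1 was between -0.062 and 0.18 in the fits that left out 1 library, and was below 0 without rIL-17B replicate 1. TMM effective library sizes moved the median log2 ratio of replicate 1 to -1.33, and pseudocounts of 0.1 or 1 CPM or the deposited totals left it at -1.19. The order per kb kept 5 of 10 places with the longest transcript and 2 with the median coding transcript, the latter chosen after seeing the data. The SE of the log2 fold change was between 0.10 for SDC2 and 2.61 for VCAN, which limits what 2 libraries a group can show.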
